A study of Mus musculus with 24 samples.

Results

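The transcripts described here are 46 genes of the Nrf2 antioxidant programme, of glutathione metabolism and of the pentose phosphate pathway, chosen by name. All 46 symbols were found among the 54532 genes of the mouse liver count table. Bulk RNA sequencing covered 24 livers of male mice, 4 for each of 6 genotypes, taken at 8 to 10 weeks of age after a fast of 24 h. Rab30 is a small GTPase of the Golgi, and Cpt2 is the inner mitochondrial membrane enzyme that long-chain fatty acids need for β-oxidation. The study asked what loss of Rab30 does in the fasted liver, with and without Cpt2.

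Rab30KO mice lacked Rab30 in every tissue, and Rab30 Ctrl mice were their wild-type littermates. Rab30 L-/-, Cpt2 L-/- and DKO mice lost Rab30, Cpt2 or both through Cre recombinase driven by the albumin promoter. The study used this Cre to target hepatocytes. The ff;ff mice carried the floxed alleles of both genes without Cre. The labels name them as littermates of DKO and of no other group, so for Rab30 L-/- and Cpt2 L-/- a difference between litters cannot be told apart from the genotype. All mice, controls included, were fasted, so no comparison contains a fed liver.

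Nrf2, encoded by Nfe2l2, is a transcription factor that Keap1 holds back by directing it to degradation. When electrophiles or oxidants modify Keap1, Nrf2 builds up and binds antioxidant response elements in the promoters of genes for glutathione synthesis, thioredoxin reduction, quinone and carbonyl reduction and conjugation. Much of this chemistry spends NADPH, which the pentose phosphate pathway and cytosolic malic enzyme regenerate. Liver is rich in these enzymes because it clears reactive products of lipid and drug metabolism.

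Promoter sequences were examined for letters that match such an element. RefSeq promoters of GRCm38.p6, from 250 bases before to 50 bases after the transcription start, were found for 40 of the 46 members and searched on both strands for TGACNNNGC, the core of the antioxidant response element. The core occurred in 12 of those 40 members (30%) and in 14.0% of all 27025 promoters of the table. Among the 13 members that were higher in both comparisons of Cpt2 loss, 11 had a promoter in the table and 5 of these held the core (45.5%), against 7 of the 29 other members (24.1%). Without Cbr3 and Gsta1, whose counts were low in livers with Cpt2, it was 5 of 9 (55.6%). These shares rest on few genes, sorted by calls in these same data, and a link between core and change was not tested. Windows of 29 bases around the match are shown for those 5 genes, and for Gclm and Nfe2l2, which also held the core. Gsta3, Prdx1, Mgst1, Sod1 and G6pdx held it too and are not shown. Of these, Gsta3 was called lower in Cpt2 L-/- over ff;ff, and the others were called in neither comparison of Cpt2 loss. The windows read 5′ to 3′ along the strand of the gene, with the match in capitals. Where the capitals begin with GC, the core lies on the opposite strand.
Srxn1: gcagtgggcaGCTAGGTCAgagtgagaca
Txnrd1: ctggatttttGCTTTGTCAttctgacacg
Pgd: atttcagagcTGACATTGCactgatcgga
Me1: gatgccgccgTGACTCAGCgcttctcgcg
Ugdh: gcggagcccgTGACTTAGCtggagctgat
Ugdh: tcctcaagggGCGTGGTCAtacagttcgg
Gclm: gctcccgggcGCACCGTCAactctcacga
Nfe2l2: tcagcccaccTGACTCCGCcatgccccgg
The windows lie at chr2:152105542-152105570 on the plus strand for Srxn1, chr10:82859104-82859132 on the plus strand for Txnrd1, chr4:149166061-149166089 on the minus strand for Pgd and chr9:86695902-86695930 on the minus strand for Me1. The pair for Ugdh is at chr5:65435956-65435984 on the minus strand and chr5:65435918-65435946 on the minus strand. Gclm has its window at chr3:122245413-122245441 on the plus strand and Nfe2l2 at chr2:75704885-75704913 on the minus strand. The match in Me1 starts 6 bases before the transcription start, that in Pgd 4 bases after it and that in Srxn1 29 bases after it. A match is a stretch of letters and not a measured binding site, and these data contain no binding measurement.

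Library totals ran from 11801027 to 24497738 counts, with a median of 14358966, and levels below are CPM, counts scaled to a common library size with TMM factors. Counts over the whole Cpt2 gene were 95.3 to 167 CPM in the libraries labelled Cpt2 L-/-, 96.1 to 120.0 in DKO, 128 to 139 in ff;ff and 169.7 to 268 in Rab30 L-/-. Whole-gene Rab30 was 10.4 to 26.6 CPM in Rab30 L-/- and 25.9 to 44.6 in ff;ff, but 122 to 188 in the libraries labelled Cpt2 L-/- and 101 to 231 in DKO. In Rab30KO it was 5.39 to 17.4 CPM and in Rab30 Ctrl 6.64 to 30.1. Exons outside a deleted part are still counted, so these values do not check the labels. Summed hepatocyte markers (6 genes) were 88181 to 112808 CPM in ff;ff, 68448 to 83489 in Rab30 L-/-, 39299.9 to 50549.5 in Cpt2 L-/- and 53090.5 to 63947 in DKO. Summed Kupffer cell markers (10 genes) were 219.5 to 403 CPM in ff;ff, 279 to 794 in Rab30 L-/-, 178 to 268 in Cpt2 L-/- and 169 to 204 in DKO. In Cpt2 L-/- over ff;ff, 4 of the 6 hepatocyte markers were called lower and 1, Fabp1, higher (log2 fold change 1.31), while 3 of the 10 Kupffer cell markers were called lower and none higher. In DKO over Rab30 L-/-, 3 of 6 and 9 of 10 were called lower and none higher. Summed erythroid markers (5 genes) were 209.6 to 630.3 CPM in ff;ff and 87.1 to 165 in Cpt2 L-/-, without overlap and with 4 of the 5 called lower. They were 266 to 638 CPM in Rab30 L-/- and 124 to 408 in DKO, with 1 called higher and 1 lower. Of the stellate, endothelial and bile duct cell markers at most 1 of each list was called in either comparison. The 5 neutrophil markers and, apart from 1 tested in DKO over Rab30 L-/- and not called, the 6 lymphocyte markers had too few counts to be tested in these comparisons. No hepatocyte, Kupffer cell or erythroid marker was at 0 in a whole group, and the part of these shifts in the results below was not tested. In bulk tissue, fewer cells of a type and less RNA per cell cannot be told apart.

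Per length, the 46 transcripts covered a wide range in fasted ff;ff livers (authors' FPKM, mean ± SD, n = 4). Gstp1 (1599 ± 475), Gpx1 (1335 ± 345) and Mgst1 (1005 ± 187) led, with ranges that overlapped one another. The subunits of glutamate-cysteine ligase were close to each other, with Gclc at 46.5 ± 11.7 and Gclm at 38.5 ± 9.94. Gsr (31.9 ± 4.34), Txnrd1 (28.3 ± 1.77) and Me1 (28.7 ± 7.59) lay in one band. Nfe2l2 itself was at 16 FPKM and Keap1 at 10.6. At the bottom were Nqo1 (3.73 ± 1.54), Mgst3 (3.48 ± 1.31), Pgd (2.53 ± 0.187), G6pdx (1.14 ± 0.408), Cbr3 (0.429 ± 0.134) and Gsta1 (0.112 ± 0.182). Pgd, Cbr3 and Gsta1, whose changes were among the steepest, thus started from low levels.

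Livers without Cpt2 had more of 13 antioxidant, NADPH-producing and conjugating transcripts in both comparisons, and less of 3 glutathione S-transferases. In Cpt2 L-/- over ff;ff, 21 of the 46 members (45.7%) were higher and 7 (15.2%) lower, and 18 did not pass the test. A gene was called when edgeR's quasi-likelihood test gave a Benjamini-Hochberg adjusted p under 0.05 over all genes tested and the change was at least 1.2-fold. Log2 fold changes are given ± SE from this fit, and where a pair stands together the first is for Cpt2 L-/- over ff;ff and the second for DKO over Rab30 L-/-. Over all 13270 genes tested, 11.9% were called higher and 11.9% lower. In DKO over Rab30 L-/-, a comparison that shares no library with the first, 15 members (32.6%) were higher, 4 (8.70%) lower and 27 were not called, against 14.9% higher and 15.8% lower of 13292 genes. The share of members called higher was thus above that of all genes in both comparisons, while the share called lower was near it in the first and under it in the second. Because the members were chosen with earlier results of these data known, these and the following shares are a description. The median log2 fold change of the members was 0.47 in the first comparison and 0.39 in the second, and that of all genes tested was -0.0035 and -0.012.

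Called higher in both were 13 of the 46 members (28.3%), against 6.28% of the 12970 genes tested in both. These 13 are 61.9% of the 21 and 86.7% of the 15, and of all genes called higher in the first or in the second comparison and tested in both, 53.3% and 41.2% were called higher in the other too. They were Srxn1, Txnrd1, Gclc, Gss, Gsr, Pgd, Tkt, Me1, Nqo1, Cbr3, Ugdh, Gsta1 and Mgst3. Called lower in both were Gsta4, Gstt1 and Gstt3, 3 of the 46 (6.52%) against 6.71% of all genes, a share near that of all genes. They are 42.9% of the 7 and 75.0% of the 4, and the like shares over all genes were 55.9% and 42.6%. Gsta1 and Cbr3 had too few counts to be tested between ff;ff and Rab30 L-/-, and entered the comparisons of Cpt2 loss only through the groups where they are high. Without them, 19 of 44 members (43.2%) were higher in the first comparison and 13 (29.5%) in the second. Of all genes also tested in Rab30 L-/- over ff;ff, 11.2% and 14.7% were called higher there. Called higher in both were 11 of the 44 (25.0%), against 5.91% of the 12846 genes tested in all 3 comparisons.

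**Figure D1:**
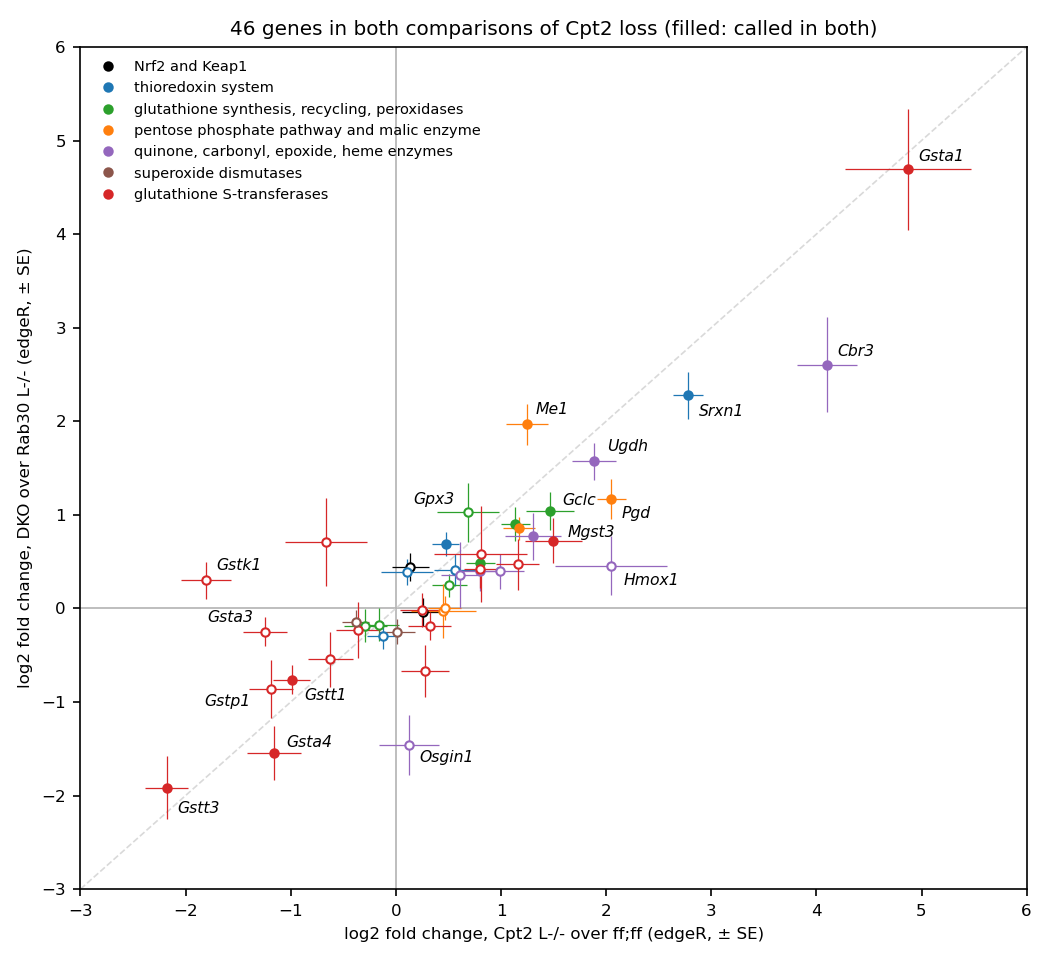
Log2 fold change with its standard error for each of the 46 genes in Cpt2 L-/- over ff;ff (x axis) and in DKO over Rab30 L-/- (y axis), each comparison with 4 livers against 4, coloured by role and with equal change on the dashed line. The 16 filled points were called in both comparisons, 13 in the upper right and 3 in the lower left, and Gstk1 sits apart on the left with -1.81 on the x axis and 0.30 on the y axis.

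Of the regulators, Nfe2l2 was called in 1 of the comparisons of Cpt2 loss and Keap1 in none. Nfe2l2 was 66.7, 64.5, 40.6 and 66.8 CPM in ff;ff, 36.9, 60.7, 55.6 and 54.1 in Rab30 L-/-, 57.4, 73.3, 60.9 and 72.5 in Cpt2 L-/- and 60.9, 65.3, 76.2 and 78.9 in DKO. The ff;ff and Cpt2 L-/- livers overlapped, while every DKO liver lay above every Rab30 L-/- liver. The log2 fold change of Nfe2l2 was 0.14 ± 0.17 (adjusted p = 0.619) in Cpt2 L-/- over ff;ff and 0.44 ± 0.15 (adjusted p = 0.0485) in DKO over Rab30 L-/-. The second value was called, but 6 of the 8 fits that left out 1 library gave an adjusted p of 0.0626 to 0.105, and it stayed under 0.05 without Rab30 L-/- replicate 2 or without DKO replicate 1. It was 0.0703 in the fit over all 24 libraries, 0.0890 by limma-voom and 0.050 with at least 10 counts in every library, none of which called it. Keap1 was 30.7 to 62.4 CPM in ff;ff, 39.9 to 58.1 in Rab30 L-/-, 51.5 to 66.4 in Cpt2 L-/- and 38.8 to 56.8 in DKO, so its groups overlapped. Its log2 fold changes were 0.26 ± 0.19 (adjusted p = 0.374) and -0.04 ± 0.15 (adjusted p = 0.874).

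In the thioredoxin system, Srxn1 and Txnrd1, 2 of 5 members (40%, against 11.9% and 14.9% of all genes), rose in both comparisons, and the other 3 members, Txn1, Prdx1 and Prdx6, were called in neither. Srxn1 encodes sulfiredoxin, which repairs overoxidised peroxiredoxins. Its level was 57.1, 55.9, 50.3 and 55.2 CPM in ff;ff and 63.2, 59.2, 64.3 and 45.8 in Rab30 L-/-, against 316, 403, 419 and 376 in Cpt2 L-/- and 240.0, 159.9, 373 and 354 in DKO. The lowest liver without Cpt2 was well above the highest liver with it, and DKO replicate 2 was the lowest of the 8. The log2 fold change was 2.78 ± 0.14 (adjusted p = 1.91e-07) and 2.28 ± 0.25 (adjusted p = 0.000145), a 6.86-fold and a 4.85-fold increase. Txnrd1, the cytosolic thioredoxin reductase, shifted less. It was 194, 180.3, 203 and 211 CPM in ff;ff and 169, 204, 181 and 155 in Rab30 L-/-, against 298, 273, 270.5 and 263 in Cpt2 L-/- and 295, 274, 266 and 306 in DKO. The 8 livers without Cpt2 all lay above the other 8, with log2 fold changes of 0.47 ± 0.13 (adjusted p = 0.016) and 0.69 ± 0.13 (adjusted p = 0.00212). Without ff;ff replicate 2 or without Cpt2 L-/- replicate 1, the first adjusted p of Txnrd1 was 0.0521 to 0.0580.

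Of the 7 transcripts for glutathione synthesis, recycling and peroxidases, 4 were called higher in each comparison (57.1%, against 11.9% and 14.9% of all genes) and none lower, with Gclc, Gss and Gsr higher in both and Gclm called in neither. Gclc is the catalytic subunit of glutamate-cysteine ligase, the limiting enzyme of glutathione synthesis. It measured 194, 202, 107 and 185 CPM in ff;ff and 201, 194, 151 and 129.8 in Rab30 L-/-, against 642, 494, 405 and 378 in Cpt2 L-/- and 443, 386, 260.2 and 304 in DKO. No liver of either knockout of Cpt2 overlapped its comparison group, and the log2 fold changes were 1.47 ± 0.23 (adjusted p = 0.00048) and 1.04 ± 0.20 (adjusted p = 0.00285). Gclm, the modifier subunit of the same enzyme, did not follow. Its log2 fold changes were -0.16 ± 0.19 (adjusted p = 0.585) and -0.17 ± 0.17 (adjusted p = 0.487), with 165 to 303 CPM in ff;ff and 181 to 242 in Cpt2 L-/-. Per length, Gclc was 129 ± 32.7 FPKM in Cpt2 L-/- and Gclm 34.6 ± 4.30 (mean ± SD, n = 4), so the subunits, close to each other in ff;ff, stood apart there.

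Gss, glutathione synthetase, catalyses the second step. Values of Gss were 50.1, 46.6, 51.7 and 59.9 CPM in ff;ff and 49.4, 57.6, 69.4 and 54.9 in Rab30 L-/-, against 91.9, 87.1, 107 and 80.2 in Cpt2 L-/- and 81.7, 72.4, 80.3 and 88.0 in DKO. Each group without Cpt2 lay above its own control group, although the lowest DKO liver was close to Rab30 L-/- replicate 3. The increase was 0.80 ± 0.14 (adjusted p = 0.00101) and 0.48 ± 0.12 (adjusted p = 0.012) on the log2 scale. Gsr, the reductase that returns oxidised glutathione to its thiol form with NADPH, was 88.2, 86.5, 70.3 and 100.4 CPM in ff;ff and 107, 92.9, 70.9 and 65.1 in Rab30 L-/-. It was 187, 198, 198 and 182 in Cpt2 L-/- and 162, 142, 136 and 189 in DKO, all above every liver with Cpt2. The log2 fold changes were 1.14 ± 0.14 (adjusted p = 7.92e-05) and 0.90 ± 0.18 (adjusted p = 0.00309).

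The glutathione peroxidases gave no common pattern. Gpx1, the abundant cytosolic enzyme, was called in neither comparison, with log2 fold changes of -0.29 and -0.18. Gpx4, which reduces phospholipid hydroperoxides, had a log2 fold change of 0.51 ± 0.17 (adjusted p = 0.0437) in Cpt2 L-/- over ff;ff, and the group ranges overlapped at their ends (147 to 205 against 205 to 329.9 CPM). That call was lost in 5 of 8 fits without 1 library (adjusted p 0.0678 to 0.137), and was kept without ff;ff replicate 1, ff;ff replicate 4 or Cpt2 L-/- replicate 1. Gpx3, the secreted peroxidase, was called in DKO over Rab30 L-/- with 1.02 ± 0.32 (adjusted p = 0.0315), at 6.97 to 19.4 against 3.88 to 6.46 CPM. The Gpx3 call was lost without Rab30 L-/- replicate 1, 2 or 4 or without DKO replicate 3, with adjusted p of 0.0599 to 0.0830, and by limma-voom (0.0612).

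Of the 5 pentose phosphate and malic enzymes, 4 were higher in the first comparison (80%, against 11.9% of all genes) and 3 in the second (60%, against 14.9%), and Pgd, Tkt and Me1 rose in both. Pgd encodes phosphogluconate dehydrogenase, the second NADPH-producing step of the pentose phosphate pathway. Its level was 15.3, 17.0, 16.9 and 14.9 CPM in ff;ff and 15.1, 19.2, 19.8 and 15.8 in Rab30 L-/-, against 64.5, 67.5, 75.4 and 60.4 in Cpt2 L-/- and 33.4, 24.6, 45.6 and 53.3 in DKO. Every Cpt2 L-/- liver was above every DKO liver, and every DKO liver above every Rab30 L-/- liver. The log2 fold change of Pgd was 2.05 ± 0.14 (adjusted p = 1.43e-06) and 1.17 ± 0.21 (adjusted p = 0.00229). G6pdx, the first enzyme of the pathway, was scarce and called in neither comparison. It was 1.75 to 4.67 CPM in ff;ff and 3.56 to 6.24 in Cpt2 L-/-, and the log2 fold changes were 0.45 ± 0.31 and -0.02 ± 0.29.

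Tkt and Taldo1 are the enzymes of the reversible arm that rearranges pentose phosphates. Tkt was 48.2, 74.0, 60.6 and 68.3 CPM in ff;ff and 68.7, 62.7, 56.2 and 52.5 in Rab30 L-/-, against 143, 139, 136 and 152 in Cpt2 L-/- and 106, 98.5, 107 and 122 in DKO. All 8 livers without Cpt2 were above all 8 with it, and the log2 fold changes were 1.17 ± 0.15 (adjusted p = 0.000128) and 0.86 ± 0.12 (adjusted p = 0.000546). Taldo1 reached 0.46 ± 0.15 (adjusted p = 0.0448) in Cpt2 L-/- over ff;ff, which held in 1 of 8 fits without 1 library, that without Cpt2 L-/- replicate 1 (adjusted p 0.0571 to 0.134 in the others). Neither limma-voom nor DESeq2 size factors called it (both 0.0512), and it was not called in DKO over Rab30 L-/- with 0.00 ± 0.13. Me1 encodes cytosolic malic enzyme, which makes NADPH from malate. It was 126, 107, 68.1 and 134 CPM in ff;ff and 94.7, 59.5, 49.1 and 56.6 in Rab30 L-/-, against 220.1, 253, 313 and 254 in Cpt2 L-/- and 254, 199, 251 and 315 in DKO. The Cpt2 L-/- and DKO ranges overlapped, and 3 of the 4 Rab30 L-/- livers were below every ff;ff liver. The log2 fold changes were 1.25 ± 0.20 (adjusted p = 0.000573) and 1.97 ± 0.22 (adjusted p = 0.000129).

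**Figure D2:**
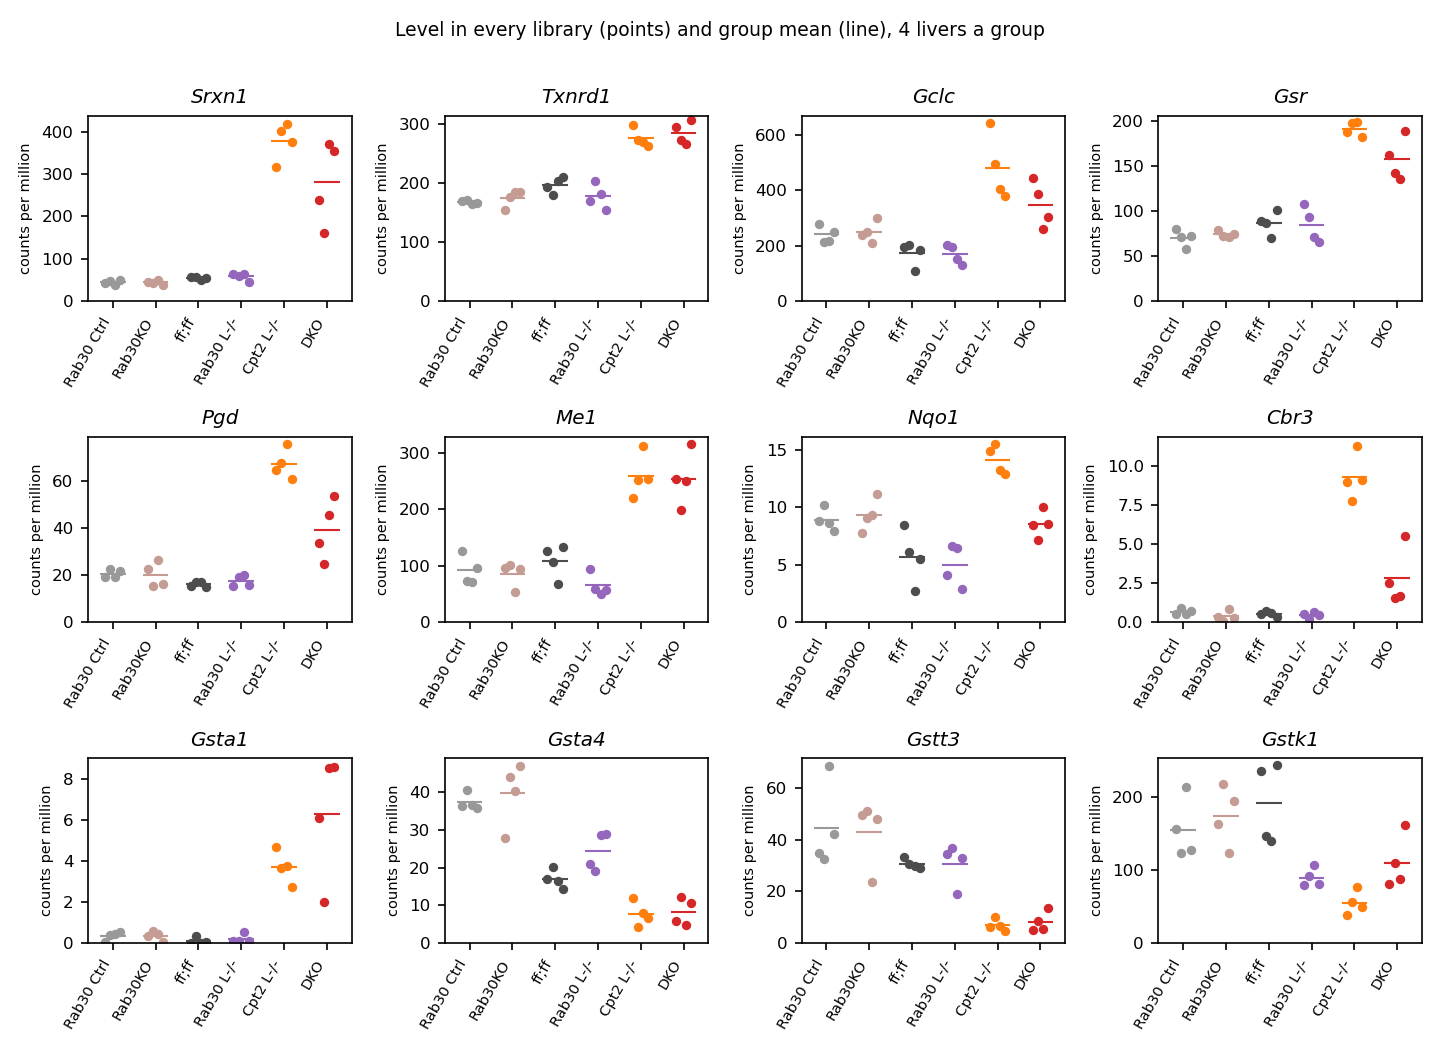
Level in CPM after TMM scaling (linear axes from 0) of 12 of the genes in all 24 livers, with 1 point a liver, 4 livers in each of the 6 groups and a line at the group mean. The means of the 9 genes from Srxn1 to Gsta1 are higher in both groups that lack Cpt2 than in ff;ff and Rab30 L-/-. Nqo1 in DKO overlaps Rab30 Ctrl and Rab30KO. Gsta4 and Gstt3 are lower in both groups that lack Cpt2, and the mean of Gstk1 is highest in ff;ff and lowest in Cpt2 L-/-.

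Among the 8 enzymes that handle quinones, carbonyls, epoxides, heme and UDP-sugars, 7 were higher in Cpt2 L-/- over ff;ff (87.5%, against 11.9% of all genes) and none lower. DKO over Rab30 L-/- had 3 higher (37.5%, against 14.9%), 1 lower (12.5%, against 15.8%) and 4 not called. Nqo1, Cbr3 and Ugdh were higher in both comparisons. Cbr3 passed the filter on low counts only through the groups where it is high. Without it, 6 of 7 (85.7%) were higher in the first comparison and 2 of 7 (28.6%) in the second. Of all genes also tested in Rab30 L-/- over ff;ff, 11.2% and 14.7% were higher. Nqo1, the quinone reductase often read as a marker of Nrf2 activity, was a low-level transcript here. It was 8.47, 6.09, 2.72 and 5.52 CPM in ff;ff and 4.08, 6.60, 6.46 and 2.88 in Rab30 L-/-, against 14.9, 15.5, 13.3 and 12.9 in Cpt2 L-/- and 8.45, 7.16, 10 and 8.54 in DKO. The lowest Cpt2 L-/- liver stood above the highest DKO liver, and DKO overlapped ff;ff. The log2 fold change was 1.31 ± 0.27 (adjusted p = 0.0033) and 0.77 ± 0.25 (adjusted p = 0.0395). The second call was lost in 5 of 8 fits (adjusted p 0.0671 to 0.0897) and kept without Rab30 L-/- replicate 2, Rab30 L-/- replicate 3 or DKO replicate 2.

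Cbr1 and Cbr3 encode carbonyl reductases and lie within 85.1 kb of each other on chromosome 16 (93605853 to 93690990, GRCm38). Cbr3 was almost silent with Cpt2 present, at 0.524, 0.710, 0.558 and 0.317 CPM in ff;ff and 0.528, 0.165, 0.629 and 0.456 in Rab30 L-/-. It was 8.97, 7.81, 11.3 and 9.12 CPM in Cpt2 L-/- and 2.51, 1.55, 1.69 and 5.54 in DKO, above every control liver and without overlap between the knockouts. The fitted log2 fold changes of Cbr3, 4.10 ± 0.28 and 2.61 ± 0.51, rest on 5 to 12 counts in ff;ff and 2 to 15 in Rab30 L-/- and are given as a description, since the gene passed the filter on low counts only through the groups where it is high. Its neighbour Cbr1 was 48.2, 62.5, 64.8 and 122 CPM in ff;ff and 78.1, 55.3, 68.4 and 49.5 in Rab30 L-/-, against 143, 159.8, 151 and 140.1 in Cpt2 L-/- and 82.0, 63.9, 73.1 and 112 in DKO. Cpt2 L-/- stood above the other 3 groups, which overlapped. Cbr1 was called in Cpt2 L-/- over ff;ff with 0.99 ± 0.23 (adjusted p = 0.00824) and not in DKO over Rab30 L-/-, where it was 0.40 ± 0.19.

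Ugdh makes UDP-glucuronic acid, the donor for glucuronidation. Levels of Ugdh were 154, 132, 94.5 and 160.2 CPM in ff;ff and 117, 151, 99.9 and 90.9 in Rab30 L-/-, against 514, 549.6, 606 and 346 in Cpt2 L-/- and 392, 304, 253 and 412 in DKO. All 8 livers without Cpt2 exceeded all 8 with it, and the log2 fold changes were 1.89 ± 0.21 (adjusted p = 4.1e-05) and 1.57 ± 0.20 (adjusted p = 0.000241). Ephx1, the microsomal epoxide hydrolase, rose in Cpt2 L-/- with 0.80 ± 0.19 (adjusted p = 0.00771). Aox1, aldehyde oxidase, rose there with 0.61 ± 0.18 (adjusted p = 0.0251), a call lost without ff;ff replicate 2 or without Cpt2 L-/- replicate 1 or 2 (adjusted p 0.0531 to 0.0842) and in a fit over all 24 libraries (0.0989).

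Hmox1, the inducible heme oxygenase, which Kupffer cells also use to break down heme, varied widely between livers. It was 9.52, 12.5, 31.1 and 15.1 CPM in ff;ff and 15.6, 44.8, 23.7 and 15.6 in Rab30 L-/-, against 112, 26.9, 97.1 and 50.1 in Cpt2 L-/- and 33.9, 27.9, 36.3 and 37.8 in DKO. The highest ff;ff liver exceeded the lowest Cpt2 L-/- liver. Hmox1 was called in Cpt2 L-/- over ff;ff with 2.05 ± 0.53 (adjusted p = 0.026) and not in DKO over Rab30 L-/-, with 0.45 ± 0.32. Its call was lost in 5 of 8 fits (adjusted p 0.0553 to 0.0667) and kept without ff;ff replicate 3, Cpt2 L-/- replicate 2 or Cpt2 L-/- replicate 4, and it was lost with no filter on low counts (0.0809). The Kupffer cell markers summed to 178 to 268 CPM in Cpt2 L-/- and 219.5 to 403 in ff;ff, with 3 of the 10 genes called lower and none higher. Osgin1, an oxidative stress-induced growth inhibitor, was the 1 member of this group called lower. It was 101, 228, 68.6 and 130.2 CPM in Rab30 L-/- and 50.6, 43.3, 51.8 and 45.7 in DKO, a log2 fold change of -1.46 ± 0.32 (adjusted p = 0.00879). In ff;ff Osgin1 was 26.1 to 63.7 CPM, below every Rab30 L-/- liver, and the Rab30 L-/- over ff;ff difference of 1.44 ± 0.39 was not called (adjusted p = 0.206).

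The 17 glutathione S-transferases, which conjugate glutathione to electrophiles, held members called in each direction. In Cpt2 L-/- over ff;ff, 4 were higher (23.5%, against 11.9% of all genes) and 6 lower (35.3%, against 11.9%), with a median log2 fold change of -0.36. Without Gsta1, which passed the filter only through the groups where it is high, 3 of 16 were higher (18.8%, against 11.2% of genes that could also be tested in Rab30 L-/- over ff;ff). DKO over Rab30 L-/- had 2 higher (11.8%, against 14.9%) and 3 lower (17.6%, against 15.8%), with a median of -0.19, and without Gsta1 1 of 16 was higher (6.25%, against 14.7%). In this comparison no share was far above that of all genes. Several belong to gene clusters with near-identical copies (Gsta1 and Gsta2, the Gstm genes, Gstp1 and Gstp2), so the counting could have split reads between copies, and single-gene values there are uncertain.

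The alpha class held genes that moved in opposite directions. Gsta1, Gsta2 and Gsta4 lie within 173 kb on chromosome 9 (78182774 to 78355788, GRCm38), and Gsta3 is on chromosome 1. Gsta1 was 0, 6, 0 and 1 counts in ff;ff and 1, 1, 13 and 1 in Rab30 L-/-, against 73, 58, 58 and 44 in Cpt2 L-/- and 87, 31, 131 and 183 in DKO. It was thus near 0 in livers with Cpt2 and low but present in all 8 without it. In CPM, Gsta1 was 0, 0.355, 0 and 0.0635 in ff;ff and 0.0755, 0.0825, 0.545 and 0.0759 in Rab30 L-/-, against 4.68, 3.65, 3.76 and 2.75 in Cpt2 L-/- and 6.07, 2.0, 8.52 and 8.58 in DKO. Its fitted log2 fold changes, 4.87 ± 0.60 and 4.70 ± 0.65, rest on those few control counts and are given as a description, since Gsta1 too passed the filter only through the groups where it is high. Gsta4, which prefers aldehydes from lipid peroxidation, went the other way. It was 17.0, 20.2, 16.4 and 14.3 CPM in ff;ff and 20.8, 19.1, 28.5 and 28.9 in Rab30 L-/-, against 11.9, 4.28, 7.84 and 6.68 in Cpt2 L-/- and 5.72, 12.3, 4.75 and 10.6 in DKO. No Cpt2-deficient liver reached a liver with Cpt2, and the log2 fold changes were -1.16 ± 0.26 (adjusted p = 0.00571) and -1.54 ± 0.29 (adjusted p = 0.00319). Gsta2 was called in neither comparison, with log2 fold changes of -0.62 and -0.55.

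In the theta class, a pair of genes was lower in both comparisons, and the third, Gstt2, was called higher in Cpt2 L-/- over ff;ff and not in DKO over Rab30 L-/-. Gstt1, Gstt2 and Gstt3 lie within 63.3 kb on chromosome 10 (75774115 to 75837424, GRCm38). Gstt3 was 33.4, 30.7, 29.7 and 29.1 CPM in ff;ff and 34.3, 36.9, 19.2 and 32.8 in Rab30 L-/-, against 6.02, 9.95, 6.54 and 4.81 in Cpt2 L-/- and 4.89, 8.71, 5.33 and 13.5 in DKO. All livers without Cpt2 were below all livers with it, and the log2 fold changes were -2.18 ± 0.21 (adjusted p = 1.37e-05) and -1.92 ± 0.34 (adjusted p = 0.00278). Gstt1 was 76.9, 120.3, 76.3 and 91.7 CPM in ff;ff and 94.3, 74.8, 87.8 and 95.4 in Rab30 L-/-, against 40.4, 51.6, 53.0 and 40.3 in Cpt2 L-/- and 57.2, 63.3, 41.1 and 46.1 in DKO. It too was lower in every Cpt2-deficient liver, with log2 fold changes of -0.99 ± 0.18 (adjusted p = 0.00118) and -0.76 ± 0.15 (adjusted p = 0.00372). Gstt2 was higher in Cpt2 L-/- (155 to 246 CPM) than in ff;ff (108 to 121 CPM), with a log2 fold change of 0.80 ± 0.15 (adjusted p = 0.00195). In DKO over Rab30 L-/- it was not called, at 0.42 ± 0.20, and the interaction was not called either, at -0.38 ± 0.26 (adjusted p = 0.425).

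In the mu class, whose 5 members span 106 kb on chromosome 3, Gstm4 was the 1 gene called, with 1.16 ± 0.20 (adjusted p = 0.00115) in Cpt2 L-/- over ff;ff. The others had log2 fold changes of -0.36 (Gstm6) to 0.81 (Gstm3) there. In the pi class, Gstp1, by FPKM the most abundant of the 46 transcripts in ff;ff (1599 ± 475 FPKM, SD, n = 4), fell by 1.19 ± 0.21 (adjusted p = 0.00112) on the log2 scale in Cpt2 L-/-. This call was lost in the fit over all 24 libraries (adjusted p = 0.129). Its ranges were 469 to 589.8 CPM in Cpt2 L-/- and 753 to 1641 in ff;ff. Of the microsomal enzymes, Mgst3 rose in both comparisons and Mgst1 in neither. Mgst3 was 3.32, 4.61, 1.95 and 5.14 CPM in ff;ff and 4.15, 3.63, 5.79 and 3.57 in Rab30 L-/-, against 10.8, 11.0, 12.9 and 8.37 in Cpt2 L-/- and 8.80, 8.26, 4.88 and 6.52 in DKO. Cpt2 L-/- was clear of ff;ff, whereas DKO replicate 3 fell within the Rab30 L-/- range. By mean FPKM, Mgst3 was 6.62 in DKO, against 7.54 in Rab30 Ctrl and 8.05 in Rab30KO, which have Cpt2. The log2 fold changes were 1.50 ± 0.27 (adjusted p = 0.00143) and 0.72 ± 0.24 (adjusted p = 0.0414). The second was lost in 6 of 8 fits without 1 library (adjusted p 0.0581 to 0.112) and kept without Rab30 L-/- replicate 3 or DKO replicate 3, and it was lost in the fit over all 24 libraries (0.131).

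**Figure D3:**
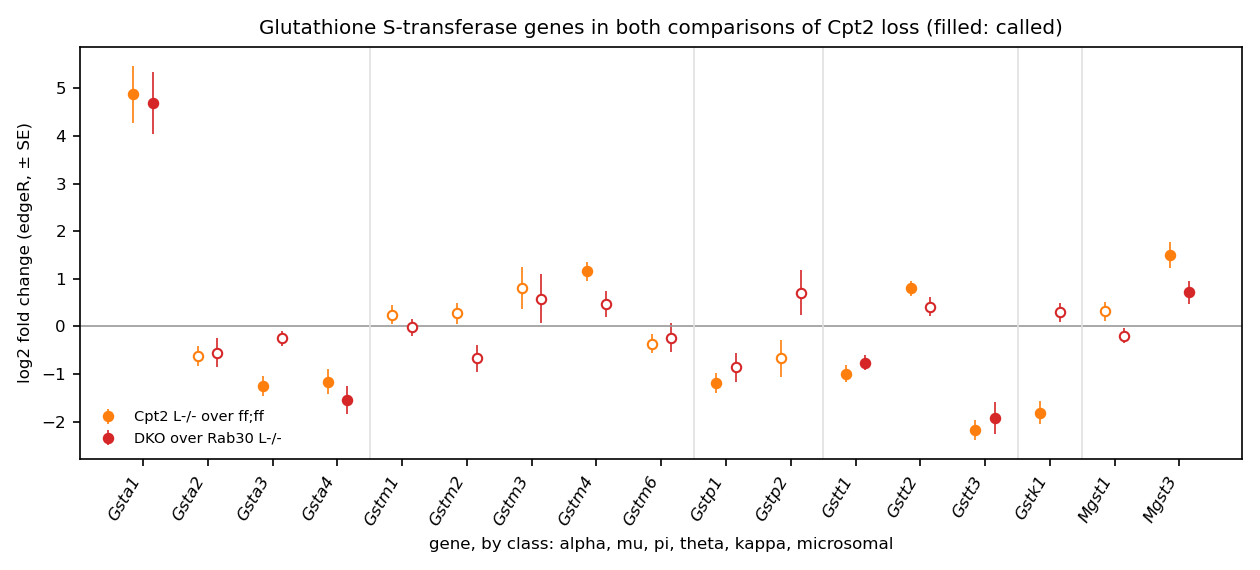
Log2 fold change with its standard error (y axis) of the 17 glutathione S-transferase genes by class (x axis) in Cpt2 L-/- over ff;ff and DKO over Rab30 L-/-, 4 livers against 4, filled where called. Gsta1 and Mgst3 are higher and Gsta4, Gstt1 and Gstt3 lower in both comparisons, and Gstk1 differs most between them.

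Gstk1, the glutathione transferase of mitochondria and peroxisomes, and Gsta3 were the members called in the interaction, although the call of Gsta3 did not hold in most fits without 1 library. The difference between both Cpt2 effects was tested as the interaction over the 16 livers with floxed alleles, which called 2 of 46 members (4.35%) against 4.06% of 14063 genes in either direction, a share near that of all genes. Gstk1 was 235, 147, 140.0 and 243 CPM in ff;ff, 78.7, 91.5, 106 and 80.1 in Rab30 L-/-, 38.2, 56.1, 76.6 and 49.1 in Cpt2 L-/- and 80.5, 109, 87.6 and 162 in DKO. Every Cpt2 L-/- liver was below every other liver of these groups, DKO overlapped Rab30 L-/-, and DKO replicate 4 also exceeded 2 of the ff;ff livers. Gstk1 fell by 1.81 ± 0.24 (adjusted p = 0.000164) in Cpt2 L-/- over ff;ff on the log2 scale. In DKO over Rab30 L-/- the log2 fold change was 0.30 ± 0.20 (adjusted p = 0.28), and the interaction was 2.11 ± 0.34 (adjusted p = 0.00172). Gsta3 was 756, 907, 476 and 753 CPM in ff;ff, 399, 619, 629 and 527 in Rab30 L-/-, 348, 345, 315 and 223 in Cpt2 L-/- and 469, 457, 443 and 451 in DKO. Each Cpt2 L-/- liver was below each ff;ff liver, and DKO lay inside the Rab30 L-/- range. The log2 fold changes of Gsta3 were -1.24 ± 0.21 (adjusted p = 0.000902) and -0.25 ± 0.15 (adjusted p = 0.242), with an interaction of 0.997 ± 0.27 (adjusted p = 0.0446). That interaction lost its call in 14 of 16 fits without 1 library (adjusted p 0.0524 to 0.0939) and kept it without ff;ff replicate 3 or without Cpt2 L-/- replicate 1. In the fit over all 24 libraries its adjusted p was 0.112, and the interaction of Gstk1 stayed called there.

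Neither superoxide dismutase gave a call that held. Sod1, the cytosolic enzyme, was called in neither comparison, and its log2 fold changes were 0.01 and -0.25. Sod2, the mitochondrial enzyme, had -0.38 ± 0.13 (adjusted p = 0.0494) in Cpt2 L-/- over ff;ff, at 139 to 171 against 182 to 219 CPM, and lost this call in all 8 fits without 1 library (adjusted p 0.0501 to 0.130).

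DKO livers were also compared with their ff;ff littermates, a comparison that shares its controls with Cpt2 L-/- over ff;ff and its DKO livers with DKO over Rab30 L-/-. Higher in DKO were 12 members (26.1%) and lower were 6 (13.0%), against 7.87% and 8.24% of 13389 genes. Without Cbr3 and Gsta1, 10 of 44 (22.7%) were higher, against 7.56% of the genes that could also be tested in Rab30 L-/- over ff;ff. The median log2 fold change of the 46 members was 0.21 (all genes, -0.018). The log2 fold changes of the thioredoxin and glutathione genes were Srxn1 2.36 ± 0.24 (adjusted p = 9.37e-05), Txnrd1 0.52 ± 0.13 (adjusted p = 0.0157), Gclc 1.01 ± 0.22 (adjusted p = 0.00946), Gss 0.62 ± 0.13 (adjusted p = 0.0072) and Gsr 0.86 ± 0.15 (adjusted p = 0.00303). For the NADPH-producing enzymes they were Pgd 1.29 ± 0.21 (adjusted p = 0.00192), Tkt 0.78 ± 0.15 (adjusted p = 0.00506) and Me1 1.22 ± 0.21 (adjusted p = 0.00233). Carbonyl and sugar nucleotide enzymes gave Ugdh 1.33 ± 0.20 (adjusted p = 0.00116) and, from few counts in ff;ff and as a description, Cbr3 2.40 ± 0.48. Of the 13 called higher in both comparisons above, 11 (84.6%) were called higher here, as were 84.3% of the 814 genes of the whole table with such calls, and these libraries are shared. Without Cbr3 and Gsta1 it was 9 of 11 (81.8%), against 83.5% of 759. Nqo1 and Mgst3 were not called, at 0.58 ± 0.29 (adjusted p = 0.199) and 0.91 ± 0.31 (adjusted p = 0.0634). Of the transferases, Gsta1, with few counts in ff;ff, had 5.65 ± 0.75, a description like that of Cbr3, and Gstt2 was higher with 0.62 ± 0.17 (adjusted p = 0.0255). Lower were Gsta3 -0.67 ± 0.19 (adjusted p = 0.029), Gsta4 -1.03 ± 0.28 (adjusted p = 0.0252), Gstp1 -1.23 ± 0.29 (adjusted p = 0.015), Gstt1 -0.82 ± 0.19 (adjusted p = 0.0114), Gstt3 -1.92 ± 0.28 (adjusted p = 0.000889) and Gstk1 -0.81 ± 0.25 (adjusted p = 0.0467). In the fit over all 24 libraries Gstp1 was not called here either (adjusted p = 0.134). Of these 18 calls, 5 were lost in at least 1 fit without 1 library. Txnrd1 was lost without DKO replicate 1 or ff;ff replicate 2 (adjusted p 0.0516 to 0.0566), Gsta4 without DKO replicate 1, DKO replicate 3 or ff;ff replicate 2 (0.0525 to 0.0731), and Gstt2 without DKO replicate 1, DKO replicate 2, ff;ff replicate 2 or ff;ff replicate 4 (0.0581 to 0.0859). Gsta3 kept its call without ff;ff replicate 1 or 3 and otherwise had 0.0662 to 0.0924, and Gstk1 kept it without DKO replicate 4, ff;ff replicate 2 or ff;ff replicate 3 and otherwise had 0.0992 to 0.129.

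Among livers that lacked Cpt2, those that also lacked Rab30 had less Nqo1, Cbr1 and Cbr3. In DKO over Cpt2 L-/-, 3 of 46 members (6.52%) were lower and none higher, against 1.33% of 13306 genes called lower, and the median log2 fold change was -0.23 (all genes, -0.0031). Cbr1 had -0.84 ± 0.16 (adjusted p = 0.0225), Nqo1 -0.72 ± 0.15 (adjusted p = 0.0327) and Cbr3 -1.68 ± 0.35 (adjusted p = 0.0343), a 1.79-fold, 1.64-fold and 3.21-fold decrease. In each of the 3, given above in every liver, the highest DKO value was below the lowest Cpt2 L-/- value. The interaction was not called for any of them, at -0.59 ± 0.33, -0.53 ± 0.39 and -1.49 ± 0.60. All 3 calls were sensitive to single livers. Cbr1 lost its call without DKO replicate 2, Cpt2 L-/- replicate 2 or Cpt2 L-/- replicate 4 (adjusted p 0.0579 to 0.0707). Nqo1 kept it in 1 of 8 fits, without DKO replicate 3 (0.0525 to 0.0982 in the others), and Cbr3 in 2, without DKO replicate 3 or 4 (0.0614 to 0.101). The fit over all 24 libraries lost Nqo1 (0.171) and Cbr1 (0.149). Of the members not called, -1.06 for Hmox1 and 1.01 for Gstk1 were the lowest and highest log2 fold changes.

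With Cpt2 intact, 1 of these genes was called after loss of Rab30. In Rab30 L-/- over ff;ff, 44 members were tested and Gstk1 was the 1 called, with -1.10 ± 0.20 (adjusted p = 0.0352), against 0.479% of 13367 genes called in either direction. The 4 Rab30 L-/- livers had less Gstk1 than any ff;ff liver, and 6 of 8 fits without 1 library lost the call (adjusted p 0.0519 to 0.129), while those without ff;ff replicate 2 or 3 kept it. With at least 10 counts in every library it was not called (0.0511). Cbr3 and Gsta1 were not tested here because of low counts. The median log2 fold change of the 44 was -0.038 (all genes, 0.0022). At an unadjusted p under 0.05, 6 of 44 members (13.6%) passed, against 11.2% of all genes, among them Me1 with -0.74 ± 0.25 and Gstp2 with -1.59 ± 0.37, whose adjusted p were 0.286 and 0.103.

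In the whole-body knockout, none of the 44 members tested was called by edgeR, and none passed an unadjusted p under 0.05. DESeq2 and limma-voom called none either. Over all 13656 genes, 0.022% were called. Srxn1 was 45.7, 43.6, 49.2 and 38.4 CPM in Rab30KO and 43.2, 46.8, 38.2 and 49.9 in Rab30 Ctrl. Pgd was 22.4, 15.1, 26.4 and 16 CPM in Rab30KO and 19.3, 22.7, 18.9 and 21.4 in Rab30 Ctrl. The 2 groups overlapped for both genes, and for Gclc (209.6 to 301 and 214 to 279), Nqo1 (7.74 to 11.2 and 7.93 to 10.2) and Gstk1 (122 to 218 and 124 to 213). Hmox1 spanned 13.6 to 90.0 CPM in Rab30KO and 16.5 to 48.9 in Rab30 Ctrl. Its highest value was in Rab30KO replicate 3, where the Kupffer cell markers summed to 1599 CPM, also the highest. The log2 fold changes of the members ran from -0.38 (Cbr1) to 0.45 (Hmox1), with a median of -0.015.

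**Figure D4:**
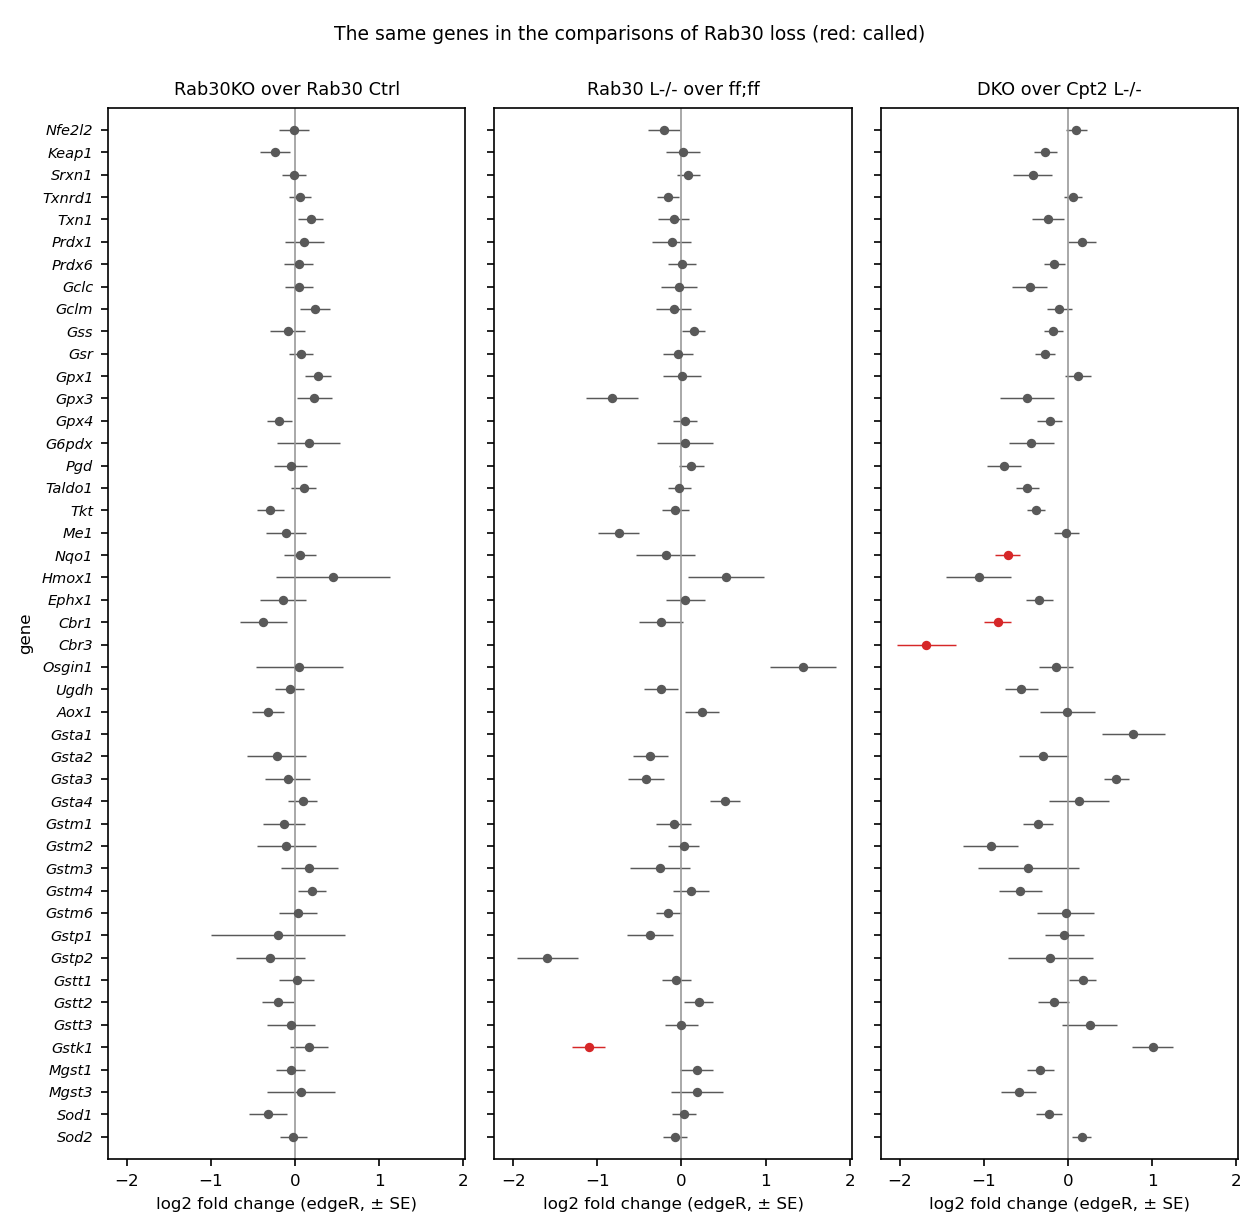
Log2 fold change with its standard error (x axis) of each gene (y axis) in Rab30KO over Rab30 Ctrl, Rab30 L-/- over ff;ff and DKO over Cpt2 L-/-, 4 livers against 4 in each panel, with called genes in red and Cbr3 and Gsta1 untested in the first and second panel. No gene is red in the first panel, Gstk1 is red at -1.10 in the second, and Nqo1, Cbr1 and Cbr3 are red at -0.72, -0.84 and -1.68 in the third.

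A further list of 62 genes of the same pathways was examined beside the members, of which those with enough counts were tested. In Cpt2 L-/- over ff;ff, 10 of 54 tested were higher (18.5%, against 11.9% of all genes) and 8 lower (14.8%, against 11.9%). Over Rab30 L-/-, DKO had 11 of 53 higher (20.8%, against 14.9%) and 7 lower (13.2%, against 15.8%). Of 53 tested in both, 6 were called higher in both (11.3%, against 6.28% of all genes) and 5 lower (9.43%, against 6.71%). Higher in both were Sqstm1, the autophagy receptor that binds Keap1, Mafk, a small Maf partner of Nrf2, and Aldh3a2, a fatty aldehyde dehydrogenase, together with the ferritin chains Ftl1 and Fth1 and with Oplah, the oxoprolinase of the glutathione cycle. Their log2 fold changes in the 2 comparisons were 1.19 and 0.95 for Sqstm1, 1.15 and 0.59 for Mafk, 2.35 and 2.44 for Aldh3a2, 0.76 and 0.65 for Ftl1, 0.56 and 0.62 for Fth1, and 0.65 and 0.51 for Oplah. Lower in both were Prdx4 (-0.94 and -0.89), Gstm7 (-0.80 and -0.96), Gstz1 (-0.73 and -0.39), Nqo2 (-1.19 and -0.86) and Shpk (-0.48 and -0.54). These include a peroxiredoxin of the endoplasmic reticulum, a second quinone reductase and sedoheptulokinase of the pentose phosphate pathway.

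In Cpt2 L-/- over ff;ff, the other genes of this list called higher were Abcc3 0.79, Blvrb 0.67 and Glrx5 0.48, and those called lower were Hmox2 -0.81, Gsto1 -0.51 and Txn2 -0.41 on the log2 scale. Gpx7, an endoplasmic reticulum peroxidase, had 1 to 10 counts in ff;ff and 15 to 32 in Cpt2 L-/-, and its fitted value of 2.14 is a description, since it passed the filter only through the group where it is high. Without it, 9 of 53 (17.0%) were higher, against 11.2% of the 12983 genes also tested in Rab30 L-/- over ff;ff. In DKO over Rab30 L-/-, they were Txnip 2.07, Abcc4 1.40, Maff 1.36, Rpia 0.82 and Cul3 0.49 among the higher, and Prdx5 -0.50 and Mafg -0.39 among the lower. Abcc4 was 2.16 to 5.14 CPM in DKO and 3.23 to 4.53 in ff;ff, which overlapped, and 0.607 to 1.90 in Rab30 L-/-. Txnip, the inhibitor of thioredoxin, had an interaction of 1.69 ± 0.35 (adjusted p = 0.013), and Glrx, a glutaredoxin, one of 0.86 ± 0.24 (adjusted p = 0.0482), the 2 calls among 55 tested (3.64%, against 4.06% of all genes). In DKO over ff;ff, 6 of 53 were higher (Txnip 1.22, Aldh3a2 1.94, Sqstm1 0.99, Mafk 0.85, Fth1 0.63 and Idh2 0.61) and 4 lower (Prdx4 -0.97, Gstm7 -0.76, Hmox2 -0.70 and Shpk -0.40). These are 11.3% and 7.55% of the list, against 7.87% and 8.24% of all genes. Glrx alone was called in DKO over Cpt2 L-/-, at 0.57 ± 0.11 (adjusted p = 0.0256), which is 1 of 54 (1.85%) against 2.71% of all genes in either direction, and no gene of the list in Rab30 L-/- over ff;ff or in Rab30KO over Rab30 Ctrl, where 3 and 1 of 53 (5.66% and 1.89%) passed an unadjusted p under 0.05, against 11.2% and 2.21% of all genes. The fit over all 24 libraries did not call Glrx in DKO over Cpt2 L-/- (adjusted p = 0.0929), nor Ftl1, Gstz1, Maff and Prdx5 in DKO over Rab30 L-/- (0.0536 to 0.112). Ftl1, though not called between the whole-body groups, was 123 to 279 CPM in Rab30KO and 494 to 1340 in Rab30 Ctrl, without overlap.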

How the data were processed

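Total RNA of 24 livers was sequenced by the submitters' provider. The authors deposited raw counts per gene and FPKM values (fragments scaled by gene length and library size); their processing notes name HISAT2, DESeq2 and GRCm38 (mm10). Counting software, annotation release and strand setting are not given in the sources used here. The 5 deposited tables of fold changes and p-values and a table of normalised values were not used, and 0 other columns of per-sample values were left out. Counts were fitted in edgeR 4.0.16 (R 4.3.3), with filterByExpr, TMM and the robust quasi-likelihood test, in the 8 libraries of each comparison or, for the interaction, in 16. Genes were called at a Benjamini-Hochberg adjusted p under 0.05 over all genes tested and at least a 1.2-fold change. DESeq2 1.42.0, limma 3.58.1 with voom and quality weights, other scalings and filters and leaving out each library were the alternatives.

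Values were printed by library for up to 20 members: those called alike in both comparisons of Cpt2 loss, then those called after Rab30 loss or in the interaction, then the largest changes in Cpt2 L-/-. Outside this rule, they were also printed in some groups for Nfe2l2, Osgin1 and Gstp1. Members and lists were chosen with earlier results of these data known. On counts simulated from these libraries, with 200 genes changed 2-fold, the test recovered 60.5% of them for Cpt2 L-/- over ff;ff, 54.0% for DKO over Rab30 L-/-, 37.5% for DKO over ff;ff, 37.5% for Rab30 L-/- over ff;ff, 61.0% for DKO over Cpt2 L-/-, 33.5% for Rab30KO over Rab30 Ctrl and 15.0% for the interaction. Replicates all differed by more than counting noise. The labels do not say that a replicate is more than a separate liver sample of its group, so p-values measure the spread between these samples. The symbol Nnt had a pair of rows, of which the longer gene model was kept. Promoter sequences are from RefSeq (GRCm38.p6).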

Additional observations from a re-analysis of the deposited data

Results flagged for a closer look

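Single livers stood apart from the other 3 of their group in 3 of the 120 sets of 4 values examined, where chance alone gives about 1 in 20. Me1 was 53.9 CPM in Rab30KO replicate 3, against 93.9 to 101 in the others. Gstt3 was 23.8 CPM in the same liver, against 48.2 to 51.3, and that liver also had the highest sum of Kupffer cell markers (1599 CPM). Gsta1 was 0.545 CPM (13 counts) in Rab30 L-/- replicate 3, against 0.0755 to 0.0825 (1 count each) in the others.

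The interaction test in edgeR called Gstk1 and Gsta3, that is 2 of 46 members (4.35%) against 4.06% of all genes. The log2 difference between the effects was 2.11 for Gstk1 and 0.997 for Gsta3 (adjusted p = 0.00172 and 0.0446). The call of Gsta3 was lost in 14 of 16 fits without 1 library (adjusted p 0.0524 to 0.0939) and in the fit over all 24 libraries (0.112).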

How the results depend on the processing

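No other scaling, filter or tool changed the direction of a called gene. The counts of called members in the 3 comparisons of Cpt2-deficient livers with livers that had Cpt2 stayed within 1.5 times the reported ones under every alternative. Smaller counts moved more. In Rab30 L-/- over ff;ff (1 called), an unadjusted p gave 6 members, the DESeq2 Wald test 3, limma-voom 2, no filter 2, at least 10 counts in every library 0, and leaving out 1 library 0 to 1. Over all genes the first 4 of these called 11.2%, 2.23%, 1.77% and 0.923%, against 0.479%. In DKO over Cpt2 L-/- (3 called), they gave 15, 10, 10 and 6 in that order, and leaving out 1 library 0 to 4, while the calls over all genes went from 2.71% to 21.2%, 7.76%, 11.5% and 2.79%. For the interaction (2 called), an unadjusted p gave 9, the DESeq2 Wald test 4, limma-voom 5, a fit over all 24 libraries 1, and leaving out 1 library 1 to 3. Over all genes these settings called 21.7%, 7.68%, 9.02% and 2.56%, against 4.06%, so that the 9 of 46 members (19.6%) at an unadjusted p lay under the share of all genes. In Rab30KO over Rab30 Ctrl, every setting gave 0. Changes near 0 turned their sign: Nfe2l2 in Cpt2 L-/- over ff;ff ran from -0.0074 to 0.194 when 1 library was left out, and Keap1 in DKO over Rab30 L-/- from -0.128 to 0.0628, with 0.157 by limma-voom. Among the members, the fit over all 24 libraries lost 8 single-gene calls, those of Gstp1 among them (adjusted p = 0.129 in Cpt2 L-/- and 0.134 in DKO, both over ff;ff). Limma-voom lost Nfe2l2 and Gpx3 in DKO over Rab30 L-/- and Taldo1 in Cpt2 L-/- over ff;ff, DESeq2 size factors lost Taldo1, no filter lost Hmox1 and Sod2 in Cpt2 L-/- over ff;ff, and at least 10 counts in every library lost Nfe2l2 in DKO over Rab30 L-/- and Gstk1 in Rab30 L-/- over ff;ff. The causes were not tested. No paired analysis was possible because the labels give the groups no shared replicate numbers.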

Other observations

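Gstp1 varied widely between livers of 1 genotype. It was 515, 1165, 153 and 843 CPM in Rab30 Ctrl and 714, 1141, 356 and 116 in Rab30KO, and no difference between these groups was called. Nnt, which encodes the mitochondrial transhydrogenase that makes NADPH, had 3 to 31 counts in each of the 24 livers.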
